A study of Mus musculus with 7 samples.

Results

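The genes that carry calcium from the endoplasmic reticulum (ER) into mitochondria were followed in oocytes with and without mitofusin 1 (MFN1), a protein of the outer mitochondrial membrane that fuses mitochondria. The 9 genes were chosen by name from the 22877 genes of the table, and all 9 were found in it: the inositol trisphosphate (IP3) receptors *Itpr1*, *Itpr2* and *Itpr3*, the ER calcium pump *Atp2a2*, the voltage-dependent anion channels *Vdac1*, *Vdac2* and *Vdac3*, the mitochondrial calcium uniporter *Mcu* and its regulator *Micu2*. RNA was sequenced from oocytes freed from secondary follicles of 8-week-old C57BL/6J females. There were 4 libraries from WT and 3 from *Mfn1*-/- mice, each made from 5 pooled oocytes with the Smart-Seq2 protocol, which amplifies cDNA of poly(A) RNA. In the *Mfn1*-/- mice, floxed *Mfn1* was deleted by Cre recombinase under the *Zp3* promoter, which is active in growing oocytes, so the granulosa cells around the oocyte keep the gene. WT mice were littermates.

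In this pathway, IP3 opens its receptors in the ER membrane, and calcium leaves the ER close to mitochondria. It crosses the outer mitochondrial membrane through VDAC channels, which also carry ATP and other metabolites, and enters the matrix through the uniporter, a pore formed by MCU and gated by the MICU proteins. The SERCA pump encoded by *Atp2a2* returns calcium to the ER. In eggs, repeated calcium release through IP3 receptors at fertilization starts embryonic development.

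The table gives 1 mean of normalized counts per genotype and gene, so values, spread and depth of single libraries are unknown here, and differences between the genotypes were described without a test. In all 22877 genes the deposited sum over libraries came, within 1%, to what 3 *Mfn1*-/- and 4 WT libraries at these means would give. The lowest mean in the table is 0.01, and 0 of the 9 genes were at it. The scale of the normalized counts is not given in the sources used here. In 1715 genes with 1 genotype at the lowest mean, the mean of the other genotype was lower in longer genes, with a median of 0.103 above the lowest mean in the shortest of 5 length bins (median exonic length 483 bases) and 0.003 in the longest (5624 bases). Across these genes, which are not independent replicates, Spearman's rho was -0.62. The values thus behave as if already divided by gene length, and levels of different genes were compared as deposited on that reading.

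*Mfn1* had a mean of 0.0577 normalized counts in *Mfn1*-/- oocytes and 0.616 in WT, 9.37% of the WT level. All 12 oocyte markers were found, led by *Dppa3*, with summed means of 2782 in *Mfn1*-/- oocytes and 2555 in WT, and 9 of the 12 were higher and 3 lower. The sum hides large differences in less abundant markers, as *Sohlh1*, a transcription factor of early oocytes, had 3.68 and 0.105 (log2 fold change, with a pseudocount of 0.1, of 4.20), *Figla*, another such factor, 34.9 and 18.7 (0.90), and *Ddx4*, a germ cell helicase, 2.74 and 1.51 (0.82). Of 13 granulosa cell markers, 11 were found, with summed means of 2.27 and 1.47, and 8 of these 11 were under 0.1 in both genotypes, the defining markers *Foxl2*, *Amh* and *Fshr* among them. Without *Inha* the sums were 0.401 in *Mfn1*-/- oocytes and 0.515 in WT. The 4 theca and stroma markers found of 7 summed to 0.146 and 0.157, and the 1 blood and endothelium marker found of 5, *Pecam1*, had means of 0.168 and 0.188. The part of other cells, and of the oocyte marker differences, in the values below was not tested. In libraries of pooled oocytes, fewer cells of a type and less RNA per cell cannot be told apart.

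In WT oocytes the 9 genes spanned a 708-fold range of levels. *Vdac3* was the most abundant, with a mean of 19.6 normalized counts, followed by *Vdac2* with 10.8. The ER pump gene *Atp2a2* (1.65) and *Vdac1* (0.913) lay at an intermediate level. *Itpr2* (0.324), *Micu2* (0.303) and *Mcu* (0.201) came next, and *Itpr1* (0.0817) and *Itpr3* (0.0277) were the least abundant. The order was the same in *Mfn1*-/- oocytes except that *Micu2* (0.284) and *Itpr2* (0.281) changed places. Without a spread over libraries it cannot be said which neighbors in this order differ. Among all genes, *Vdac3* lay at percentile 95.2 of the mean over the 7 libraries and *Itpr3* at percentile 24.4.

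**Figure D1:**
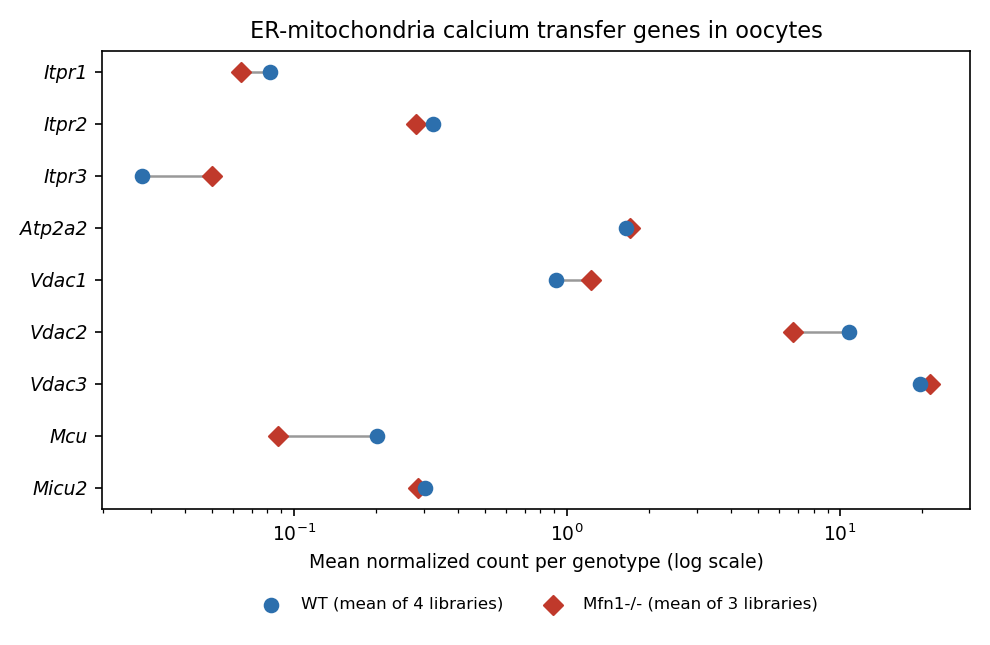
Mean normalized count (log axis) of each of the 9 calcium transfer genes, as a circle for WT (mean of 4 libraries) and a diamond for Mfn1-/- oocytes (mean of 3 libraries), joined by a line, with no error bars because the table holds 1 mean per genotype. The lines are long for *Mcu*, *Vdac2* and *Itpr3* and short for *Atp2a2*, *Vdac3* and *Micu2*.

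Log2 fold changes of *Mfn1*-/- over WT were computed after adding a pseudocount of 0.1 to both means, which shrinks the change of genes at low levels. With it, *Mcu* and *Vdac2* were the members farthest from 0, both lower in *Mfn1*-/- oocytes, whereas with no pseudocount *Itpr3* (0.86, higher) lay between *Mcu* (-1.20) and *Vdac2* (-0.68). With a pseudocount of 0.1, 0 of the 9 genes were past 2-fold. For *Itpr3* this was fixed in advance by its low mean. *Itpr1* could range only from -1.01 to 1.24 at its mean, so it could hardly be past 2-fold lower. Such limits also hold for other genes of the table at these levels. Of all genes, 7.61% were past 2-fold in either direction, and of the 6226 with a mean of 1 or more, 8.69%. By a 1.5-fold threshold 2 of the 9 genes, *Vdac2* and *Mcu*, were lower, against 6.88% of all genes, and 0 were higher, against 12.4% of all genes. On the ratio of the means with no pseudocount, a choice made after the data were seen, 1 of the 9 genes, *Mcu*, was under 0.5, as were 8.31% of all genes. The mean was higher in *Mfn1*-/- oocytes for 4 of the 9 genes and lower for 5, while it was higher for 56.7% of all genes. The median log2 fold change was -0.07 over the 9 genes and 0.04 over all genes. Genes with a mean of at least 1 had a median of 0.16. Relative to that shift, 2 of the 9 genes were higher and 7 lower, with a median of -0.23, while 63.3% of all genes lay below it. Since 5 of the 9 genes have a mean under 1, each gene was also set against the median of the genes within 2-fold of its own mean level, a choice made after the data were seen. The median difference was then -0.14, with 2 genes higher and 7 lower. *Itpr1* was at -0.18 in place of -0.31, *Itpr2* at -0.23 in place of -0.31 and *Itpr3* at 0.21 in place of 0.07. *Mcu* was at -0.72 in place of -0.84, *Micu2* at -0.14 in place of -0.23 and *Vdac2* at -0.85 in place of -0.83.

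**Figure D2:**
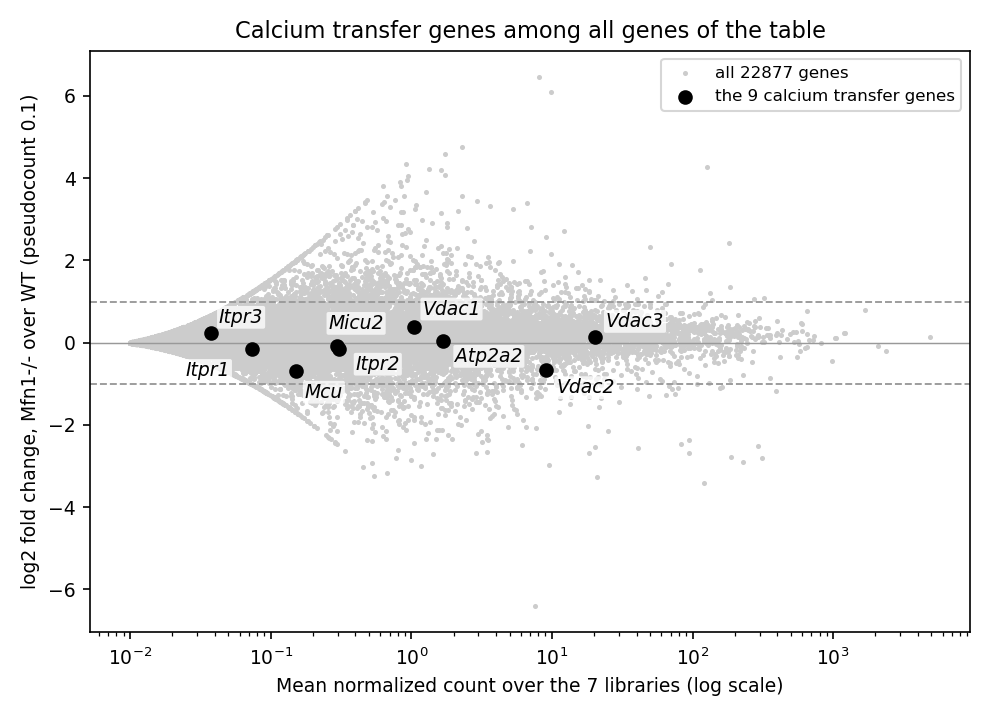
Log2 fold change of Mfn1-/- over WT (pseudocount 0.1) against the mean normalized count over the 7 libraries (log axis) for all 22877 genes in grey and the 9 calcium transfer genes in black, with dashed lines at a 2-fold change. All 9 black points lie between the dashed lines, with *Mcu* (-0.68) and *Vdac2* (-0.67) nearest to the lower one.

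The IP3 receptors are the channels through which the ER releases calcium, and their genes were among the low ones of the group. *Itpr2* (chromosome 6, 146108299 to 146502223 on GRCm38) made up 74.8% of the summed means of the 3 receptor genes in WT and 71.1% in *Mfn1*-/- oocytes. *Itpr1* (chromosome 6, 108213096 to 108551109), the receptor best known for the calcium oscillations of eggs, made up 18.9% and 16.2%. *Itpr3* (chromosome 17, 27057304 to 27122223) made up 6.39% and 12.7%. These shares are free of any scaling between the genotypes, but rest on values behaving as divided by length. The share of *Itpr3* also rests on means of 0.0502 and 0.0277, near the lowest mean of 0.01, and is thus uncertain.

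*Itpr1* had a mean of 0.0638 in *Mfn1*-/- oocytes and 0.0817 in WT (log2 fold change -0.15, or -0.31 relative to the shift). *Itpr2* had 0.281 and 0.324 (-0.15, or -0.31). Both means were thus lower by a small margin. Of the genes within 2-fold of their mean level, 30.4% had a lower log2 fold change than *Itpr1* and 31.8% a lower one than *Itpr2*. *Itpr3* had 0.0502 and 0.0277, a ratio of 1.81, and its log2 fold change was 0.23 (0.07 relative to the shift), while with no pseudocount it was 0.86. At a mean as low as that of *Itpr3*, the log2 fold change with a pseudocount of 0.1 can range only from -0.52 to 0.66, so the 2-fold threshold could not have been reached. Among the 5019 genes whose mean level was within 2-fold of that of *Itpr3*, 77.2% had a lower log2 fold change, a rank among genes and not a test over libraries. By annotation, *Itpr1* overlaps *Gm44040* and *Gm44101*, and *Itpr3* overlaps *Itpr3os*, on the opposite strand. The library kit does not mark strand, so reads from these partners cannot be told apart from reads of the receptor genes. Such overlap covered 1.52% of the 75-base windows, 75 being the read length, of the longest *Itpr1* transcript and 0.953% of those of *Itpr3*. The coding sequences of the 3 receptor genes were 64.8% to 68.7% identical, with a longest identical run of 32 bases, shorter than a read.

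*Atp2a2* (chromosome 5, 122453513 to 122502225) encodes SERCA2, the pump that refills the ER store. Its mean was 1.70 in *Mfn1*-/- oocytes and 1.65 in WT, a ratio of 1.03. The log2 fold change was 0.04, which turned to -0.12 relative to the shift and to -0.08 when the genotypes were rescaled to the same sum, so no direction can be given. A processed pseudogene, *Gm30970*, shares 3.08% of the 75-base windows of the longest *Atp2a2* transcript and was not found by name among the deposited genes. The opposite-strand gene *Gm43361*, which shares 0.295% of them, had means of 0.0655 and 0.0264.

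The VDAC genes, which encode the pores of the outer mitochondrial membrane, did not differ in 1 direction. *Vdac2* (chromosome 14, 21825238 to 21845879) was lower, with a mean of 6.74 in *Mfn1*-/- oocytes and 10.8 in WT, a ratio of 0.624. Its log2 fold change was -0.67, and -0.83 relative to the shift, and it ran from -0.68 with a pseudocount of 0.01 to -0.61 with a pseudocount of 1. A lower log2 fold change was found in 5.01% of the 1718 genes whose mean level was within 2-fold of that of *Vdac2*. VDAC2 is known, beside its channel function, as a binding partner of the cell death protein BAK. *Vdac1* (chromosome 11, 52360860 to 52389397), which encodes the channel most often described at the contact with the IP3 receptor, had 1.22 and 0.913 (log2 fold change 0.38, or 0.22 relative to the shift). *Vdac3* (chromosome 8, 22577075 to 22593813) had 21.4 and 19.6 (0.13), and its log2 fold change was -0.03 relative to the shift, so no direction can be given for it. *Vdac2* made up 34.5% of the summed means of the 3 genes in WT and 23.0% in *Mfn1*-/- oocytes, *Vdac3* 62.6% and 72.9%, and *Vdac1* 2.92% and 4.16%. The ratio of *Vdac3* to *Vdac2* was 1.81 in WT and 3.18 in *Mfn1*-/- oocytes. These shares and this ratio leave out the copies of *Vdac2* and *Vdac3*, which change them greatly.

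Both abundant VDAC genes have near-identical copies elsewhere in the genome, which bears on what their values count. The 3 VDAC coding sequences themselves were 64.1% to 69.1% identical, with a longest identical run of 17 bases, so no read of 75 bases can match more than 1 of them without a mismatch. *Vdac3-ps1*, annotated as an unprocessed pseudogene with 1 exon (chromosome 13, 18030741 to 18031593), matched all 852 coding bases of its annotated *Vdac3* transcript with 4 substitutions and 0 gap bases, an identity of 99.5%. Counted from the A of the start codon, with the base of *Vdac3* first, these are T21C and T237C, which leave the encoded residue unchanged, and G404A and T445G, which change it. The copy starts with a start codon, and its first stop is codon 284, right after the 283 codons of *Vdac3*. The stretch that holds G404A and T445G (coding bases 326 to 445 of *Vdac3*, and chr13:18031149-18031268 on the minus strand of GRCm38) shows how little sets the gene and the copy apart, with differing bases in capitals. The sequences are those of GENCODE M21 transcripts.
*Vdac3*: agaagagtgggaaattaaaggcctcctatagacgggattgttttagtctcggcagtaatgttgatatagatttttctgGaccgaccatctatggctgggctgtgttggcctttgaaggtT
*Vdac3-ps1*: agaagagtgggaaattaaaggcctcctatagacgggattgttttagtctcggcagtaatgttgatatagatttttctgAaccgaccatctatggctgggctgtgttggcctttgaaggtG

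*Gm7832*, a processed pseudogene with 1 exon (chromosome 5, 91760696 to 91761575), differs more from its source gene. It aligned with the 888 coding bases of *Vdac2* with 24 substitutions and 10 gap bases, an identity of 96.2%, and a longest identical run of 116 bases. Of stretches of 120 bases without a gap, the one with most differences (coding bases 213 to 332 of *Vdac2*, and chr5:91761248-91761367 on the minus strand) holds 6, in capitals, and is shown for contrast with the *Vdac3* copy.
*Vdac2*: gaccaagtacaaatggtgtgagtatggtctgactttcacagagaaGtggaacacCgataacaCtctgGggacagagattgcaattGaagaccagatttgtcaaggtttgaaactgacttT
*Gm7832*: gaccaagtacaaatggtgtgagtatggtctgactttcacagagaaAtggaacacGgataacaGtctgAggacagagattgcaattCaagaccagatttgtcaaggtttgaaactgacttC

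The copies had higher means than the genes they resemble. *Vdac3-ps1* had 364 normalized counts in *Mfn1*-/- oocytes and 319 in WT, 17.0 and 16.3 times the mean of *Vdac3*. *Gm7832* had 11.5 and 20.4, which is 1.71 and 1.89 times the mean of *Vdac2*. The *Mfn1*-/- to WT ratio of each copy lay close to that of its gene, 1.14 for *Vdac3-ps1* beside 1.09 for *Vdac3*, and 0.564 for *Gm7832* beside 0.624 for *Vdac2*. Of the 75-base windows of the longest *Vdac3* transcript, 41.0% also occur in *Vdac3-ps1* or in the processed pseudogene *Gm7591*. For *Vdac2*, 3.88% occur in *Gm7832*. *Gm7591* was not found by name among the deposited genes. How the authors counted reads that match several places is not given in the sources used here, so the split of reads between either gene and its copies is uncertain. With the copy added to the gene, the ratio was 1.14 for *Vdac3* and 0.585 for *Vdac2*. With the copies added, *Vdac2* made up 8.42% of the VDAC sum in WT and 4.51% in *Mfn1*-/- oocytes, *Vdac3* 91.3% and 95.2%, and *Vdac1* 0.246% and 0.301%, and the ratio of *Vdac3* to *Vdac2* was 10.9 and 21.1. If the values are divided by length, reads of a gene assigned to its shorter copy weigh more there. *Vdac3-ps1* has 853 bases against 1423 in the longest *Vdac3* transcript, and *Gm7832* 880 against 1954 for *Vdac2*. The shares and the *Vdac3* to *Vdac2* ratio with the copies added are thus uncertain. *Vdac2*, its copy and their sum were all lower in *Mfn1*-/- oocytes, so this direction did not depend on the copy being counted apart. A further 25 exonic bases of *Vdac2* overlap *Comtd1* on the opposite strand, whose mean was 2.80 in *Mfn1*-/- oocytes and 1.81 in WT.

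**Figure D3:**
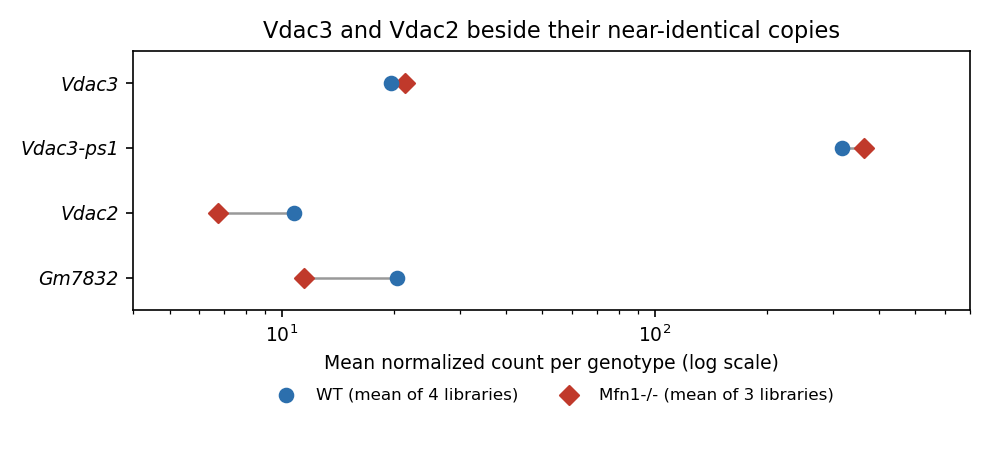
Mean normalized count (log axis) of *Vdac3* and *Vdac2*, each above its near-identical copy, as a circle for WT and a diamond for Mfn1-/- oocytes, with no error bars because the table holds 1 mean per genotype. *Vdac3-ps1* lies far to the right of *Vdac3*, and both *Vdac2* and *Gm7832* have the Mfn1-/- diamond to the left of the WT circle.

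*Mcu* (chromosome 10, 59446984 to 59616692) encodes the pore-forming subunit of the uniporter and was lower in *Mfn1*-/- oocytes, at 0.0876 against 0.201 normalized counts in WT, a ratio of 0.436. Its log2 fold change of -0.68 (-0.84 relative to the shift, or -0.72 against genes at a like level) depended on the pseudocount. It was -1.11 for a pseudocount of 0.01 and -0.14 for a pseudocount of 1. A lower log2 fold change was found in 9.51% of the 4940 genes whose mean level was within 2-fold of that of *Mcu*. Both means are low, and *Mcu* lay at percentile 46.3 of all genes, where the reads behind a mean may be few. *Micu2* (chromosome 14, 57916261 to 57999262), which encodes a calcium-sensing gatekeeper of the pore, had 0.284 and 0.303, a ratio of 0.937. Its log2 fold change was -0.07, and -0.23 relative to the shift. Neither gene shares a 75-base window with another annotated transcript.

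Beside *Mcu* and *Micu2*, other subunits of the uniporter were read from the same table, and were chosen for their role after their values were seen. *Smdt1*, which encodes EMRE, the small subunit that MCU needs to conduct calcium, had a mean of 7.09 in *Mfn1*-/- oocytes and 4.85 in WT (log2 fold change 0.54). *Mcub*, a relative of MCU that lowers the activity of the pore, had 0.357 and 0.373 (-0.05). *Micu3* was at 0.0191 and 0.0186. Set against *Mcu* in the same genotype, *Micu2* was 1.51 times its level in WT and 3.24 times in *Mfn1*-/- oocytes, *Mcub* 1.86 and 4.08 times, and *Smdt1* 24.1 and 80.9 times. Each of these ratios was higher in *Mfn1*-/- oocytes, and all of them have the same *Mcu* mean as the divisor.

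The other genes of calcium handling were described by role, in 6 lists whose 88 genes found of 95 include the 9 members. Of the 79 that are no members, 2 were higher and 2 lower past 2-fold, 5.06% in all, beside 7.61% of all genes, of which 4.87% were higher and 2.75% lower. Their median log2 fold change was 0.06, beside 0.04 over all genes, and -0.10 relative to the shift. Genes with means as low as that of *Itpr3*, in the lists and in the table, could not have been past 2-fold, so these shares are partly fixed by level. Means under that of *Itpr3* were found for *Ryr1*, *Ryr2*, *Ryr3*, *Pln*, *Stim1*, *Orai2* and *Rcn1* of the ER store. The same held for *Hk1*, *Hk2* and *Tespa1* at contact sites, *Micu3* and *Slc8b1* in mitochondria, and the phospholipase C genes *Plcb2*, *Plcb4*, *Plcd1* and *Plch1*. The shares do not set the lists apart from the rest of the table.

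In the uniporter and mitochondrial calcium exchange list, 1 of 14 genes was past 2-fold. *Ppif*, which encodes cyclophilin D, a regulator of the permeability transition pore, was higher, at 7.25 in *Mfn1*-/- oocytes and 2.33 in WT (log2 fold change 1.60, or 1.44 relative to the shift). It exceeded 98.4% of the genes whose mean was 1 or more. The most abundant gene of the list was *Smdt1*. *Mcur1*, which encodes a regulator of the uniporter and was named after its values were seen, had 2.79 and 3.77 (-0.42). Of the 22 other genes of the ER store, 1 was past 2-fold. This was *Orai3*, a subunit of plasma membrane calcium channels, with 0.622 and 0.167 (1.44), named after its values were seen because its mean is under 1. The most abundant was *Hspa5*, the ER chaperone BiP, with 47.6 and 37.7 (0.34). Of the 16 other outer membrane and contact site genes, *Mfn1* itself (-2.18) was past 2-fold and *Bcap31*, an ER membrane protein, was the most abundant with 11.8 and 9.80 (0.27). For their roles at the contact, after their values were seen, *Hspa9* and *Mfn2* were also read. *Hspa9* encodes GRP75, the chaperone that links IP3 receptors to VDAC, and had 6.79 and 6.35, with a log2 fold change of 0.10 that turned to -0.06 relative to the shift. *Mfn2*, the other mitofusin gene, had 0.158 and 0.105 (0.33, or 0.17 relative to the shift).

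Of 11 phospholipase C genes, whose enzymes make IP3, *Plce1* was the most abundant and was lower past 2-fold, with 0.183 in *Mfn1*-/- oocytes and 0.484 in WT (log2 fold change -1.05, or -1.20 relative to the shift). The 5 genes of enzymes that break down IP3 and the 11 genes of calcium export and entry at the plasma membrane and Golgi had 0 past 2-fold. For *Itpkb*, *Itpkc*, *Atp2b2*, *Atp2b3*, *Atp2b4*, *Slc8a2* and *Slc8a3* this was fixed in advance. Their means lie under that of *Itpr3*, where the threshold cannot be reached with a pseudocount of 0.1. Their most abundant genes were *Inpp5b*, an inositol phosphatase, with 0.792 and 1.01 (-0.32), and *Atp2c1*, the calcium pump of the Golgi, with 0.959 and 0.820 (0.20).

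**Figure D4:**
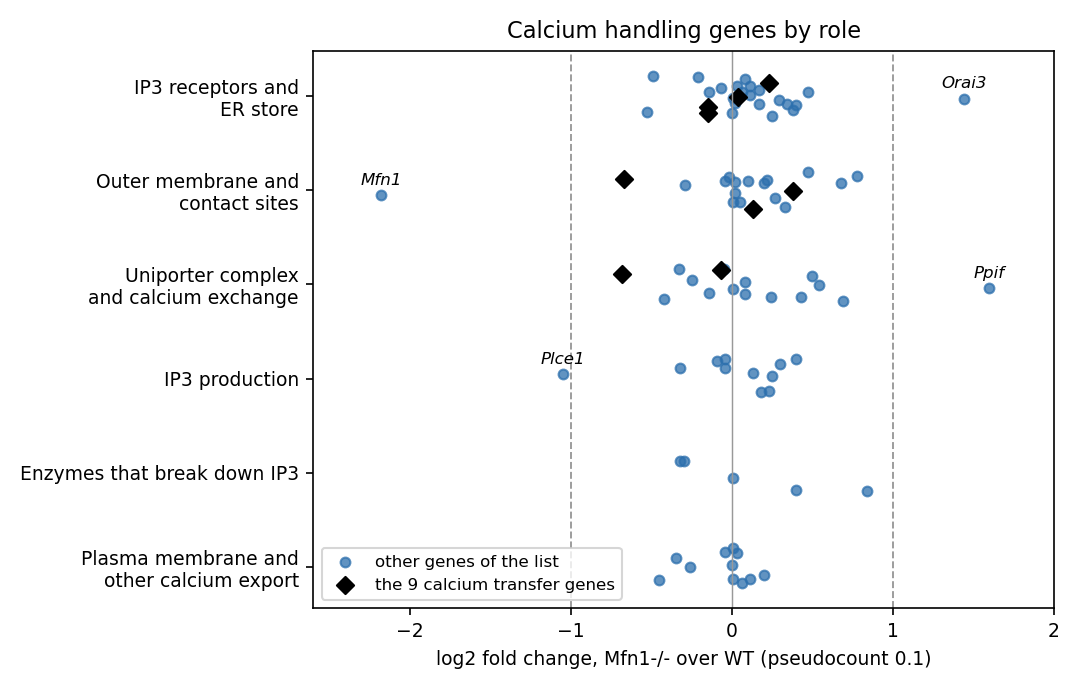
Log2 fold change of Mfn1-/- over WT (pseudocount 0.1) for the genes of 6 lists by role, with the 9 calcium transfer genes as black diamonds, the other genes of each list as circles, and dashed lines at a 2-fold change. Only *Orai3*, *Mfn1*, *Ppif* and *Plce1* lie outside the dashed lines, and points are spread vertically within a row for legibility alone.

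Of all genes, 17.1% were past 2-fold with a pseudocount of 0.01, 21% with none and 1.39% with a pseudocount of 1. The pseudocount decided how far *Mcu* and *Itpr3* lay from 0, while *Vdac2* stayed between -0.83 and -0.61 in the settings plotted. The signs of *Atp2a2* and *Vdac3* turned when the median of genes with a mean of at least 1 was subtracted, and the other 7 genes kept theirs.

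**Figure D5:**
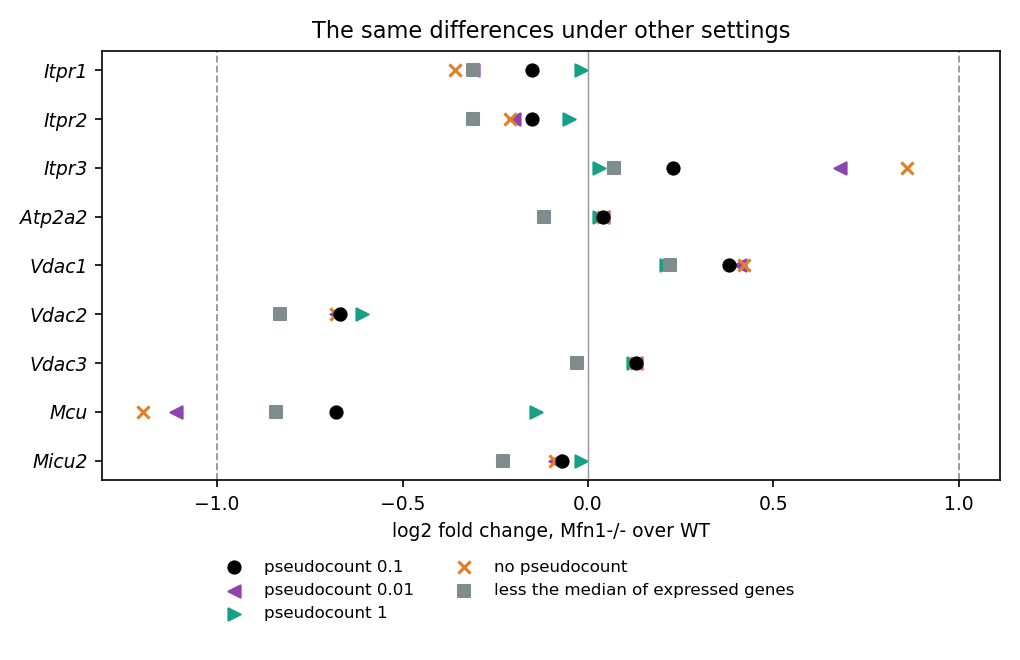
Log2 fold change of Mfn1-/- over WT for the 9 calcium transfer genes with a pseudocount of 0.1 (black circles), 0.01, 1 and none, and with a pseudocount of 0.1 after subtraction of the median of genes with a mean of at least 1 (squares), with dashed lines at a 2-fold change. Only *Mcu* crosses a dashed line, with a pseudocount of 0.01 and with none.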

How the data were processed

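Adapters were removed by the authors with Cutadapt and poor reads with the FASTX-Toolkit, STAR aligned the rest to GRCm38/mm10, and reads were counted per gene. The annotation version and the treatment of reads with several matches are not given in the sources used here. The signal deposited by the authors is, for each gene, 1 mean of normalized counts for WT (4 libraries) and 1 for *Mfn1*-/- (3 libraries), with their total. The deposited p-values, FDR, ratio and fold change hold the authors' own comparison of the genotypes and were not used. There were 0 unused columns of per-sample values. Depth per library is unknown.

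From the means, log2 fold changes were computed with a pseudocount of 0.1, and the 2-fold threshold is the one the study's methods name. No test was made. The members and the lists were chosen with earlier results of these data known. Named genes are the members, *Mfn1*, list genes past 2-fold with a mean of at least 1 (up to 3 rises and 3 falls a list) and the most abundant gene of each list, with exceptions stated. Of 22876 gene symbols, 21892 were found once in GENCODE M21 (GRCm38). Copies were found with blastn 2.17.0 (at least 75 bases at 95% identity) and aligned with Biopython 1.88. Python 3.11.15, numpy 2.4.6, pandas 2.3.3 and matplotlib 3.10.9 were used. The code that makes the calls was run on simulated means without noise, with changes well past the threshold in genes with a WT mean of at least 1. Recovery was fixed by that setting, so the run does not bear on calls at low levels. The alternatives were other pseudocounts, scalings, thresholds and a minimum mean.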

Additional observations from a re-analysis of the deposited data

How the results depend on the processing

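No paired analysis was possible because the table gives 1 mean per genotype, and for the same reason leaving out single libraries and the replicate block were not run. Division by transcript length was not run either, since low values already fell with length. Of 126 alternative values, 106 kept their side of the 2-fold threshold and moved by less than 1.5-fold (for counts, stayed within 1.5 times), and 20 did not. That 0 called values turned direction was fixed in advance, as 0 of the 9 genes were past 2-fold in the main setting. The signs of *Atp2a2* and *Vdac3*, which were not called, did turn. With a pseudocount of 0.01, the log2 fold change of *Mcu* was -1.11 and 1 of the 9 genes was past 2-fold, and the counts past 2-fold were 2 for the ER store, 2 for outer membrane and contact sites and 2 for the enzymes that break down IP3, as 17.1% of all genes then were, up from 7.61%. With no pseudocount, chosen after the data were seen, *Itpr3* had 0.86 and *Mcu* -1.20, 1 of the 9 genes was past 2-fold, and these 3 lists and that of IP3 production had 2 each, beside 21% of all genes. With a pseudocount of 1, and equally among genes with a mean of at least 1, the ER store, outer membrane and IP3 production lists had 0, which was fixed by the levels of *Orai3*, *Mfn1* and *Plce1* (means of 0.362, 0.377 and 0.355): they are left out by the minimum mean, and with a pseudocount of 1 they could not be past 2-fold at these means. A 1.5-fold threshold gave 2 of the 9 genes. By level in *Mfn1*-/- oocytes, 2 of the 9 genes changed rank. Subtraction of the lowest value, addition of the copies and subtraction of the median of genes at a like level, also chosen after the data were seen, moved no count of members. The low means of *Itpr1*, *Itpr3* and *Mcu* limit these 3 genes most, and the cause of the genotype differences was not tested.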

Other observations

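Over the 7 libraries *Vdac3-ps1* ranked 43 among the genes of the table by mean level, at percentile 99.8, while *Vdac3* ranked 1109. *Gm7832* ranked 1292 and *Vdac2* 1948. Among the 5 enzymes that break down IP3, *Itpka* and *Itpkc*, which encode kinases that phosphorylate it, had means of 0.128 and 0.055 in *Mfn1*-/- oocytes and 0.0274 and 0.0173 in WT, ratios of 4.67 and 3.18. A ratio over 3 was found in 11.4% of the 4891 genes within 2-fold of the level of *Itpka* and in 10.4% of the 5079 within 2-fold of that of *Itpkc*, so such ratios were common at these low levels. The third kinase gene, *Itpkb*, had 0.011 and 0.0106, and the phosphatase gene *Inpp5a* had 0.0704 and 0.11, a ratio of 0.640. At the pseudocount of the report, 0.1, none of the 5 was past 2-fold, and *Itpkb* and *Itpkc* could not have been at their means. All 5 are given here after their values were seen. Of the genes that refill the store from outside the cell, *Stim2*, an ER calcium sensor, had 0.104 and 0.194 (log2 fold change -0.53), *Orai1*, a channel subunit, 10.4 and 8.47 (0.29), and *Saraf*, which limits this entry, 9.92 and 7.13 (0.47). *Stim2*, *Orai1* and *Saraf* were also named after their values were seen.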
